A study of Mus musculus with 8 samples.

Results

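The 10 immediate-early genes Fos, Fosb, Fosl2, Jun, Junb, Egr2, Atf3, Ier2, Nr4a1 and Dusp1 were read in every library of mouse articular cartilage, out of 52636 genes in the deposited tables. They were chosen by name as a family, selected on differences between DMM and sham surgery, and between the genotypes in that response, that were already known from this series. Those differences are therefore given as a description and carry no test. The tables held RNA of WT C57BL/6J and Oscar-/- C57BL/6 male mice taken 2 or 4 weeks after sham surgery or surgical destabilization of the medial meniscus (DMM), which induces osteoarthritis. OSCAR is the osteoclast-associated receptor, a collagen receptor first known from myeloid cells. Each of the 8 combinations of genotype, surgery and week was a single library pooled from 10 articular cartilages. Differences between such libraries had no replicate check. The labels give an age of 10 weeks, the study's methods place DMM surgery at 10 to 12 weeks of age, and neither names a cell type or promoter that limits the Oscar deletion.

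Immediate-early genes are switched on within minutes of a signal, without new protein synthesis, from promoters on which transcription factors such as SRF and CREB already wait. Many of their products are transcription factors themselves. Fos and Jun family proteins pair through leucine zippers into the dimer AP-1, which in cartilage is best known for driving matrix metalloproteinase genes, and other members shut the signal off again. The messages themselves are short-lived.

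By role, the members comprised 3 Fos family subunits of AP-1 (Fos, Fosb, Fosl2), the Jun family subunits Jun and Junb, the related leucine zipper factor Atf3, the orphan nuclear receptor Nr4a1, the zinc finger factor Egr2, the nuclear protein Ier2, and Dusp1, a phosphatase that inactivates MAP kinases and so is not a transcription factor despite its place in the group. The genes lie on 9 chromosomes of GRCm38. Junb (ENSMUSG00000052837; chr8:84974484-84978718, minus strand) and Ier2 (ENSMUSG00000053560; chr8:84661331-84662852, minus strand) share chromosome 8. Fos (ENSMUSG00000021250) is at chr12:85473890-85477273 on the plus strand, and Fosb (ENSMUSG00000003545) is at chr7:19302696-19310051 on the minus strand.

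RefSeq promoter windows of GRCm38.p6, read over the 250 bases before the annotated start, were found for 9 of the 10 genes and not for Ier2. The letters TGACG on either strand, the core of the cAMP response element that CREB and ATF proteins bind, were in the windows of Fos, Fosb, Junb, Egr2, Atf3, Nr4a1 and Dusp1, which is 7 of 9, against 19.8% of 27025 genes with a window. They were not in those of Fosl2 and Jun. All 150 bases before the Fosl2 start used here lie in exons annotated by GENCODE, whose gene start is farther upstream. What was or was not matched for Fosl2 thus describes exon sequence. The 150 bases before the start of Fos, Fosb, Junb and Nr4a1 are shown because they hold this match, and those of Jun because they do not. Capitals mark TGACG or its reverse complement, and each run ends at the base before the start.
Fos, chr12:85473740-85473889, plus strand: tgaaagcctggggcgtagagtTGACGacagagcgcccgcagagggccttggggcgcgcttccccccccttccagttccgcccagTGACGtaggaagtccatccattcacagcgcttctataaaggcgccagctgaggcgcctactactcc
Fosb, chr7:19310046-19310195, minus strand: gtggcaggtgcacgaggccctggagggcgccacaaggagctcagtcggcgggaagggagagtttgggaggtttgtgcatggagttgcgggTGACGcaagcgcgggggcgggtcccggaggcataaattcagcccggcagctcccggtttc
Junb, chr8:84978749-84978898, minus strand: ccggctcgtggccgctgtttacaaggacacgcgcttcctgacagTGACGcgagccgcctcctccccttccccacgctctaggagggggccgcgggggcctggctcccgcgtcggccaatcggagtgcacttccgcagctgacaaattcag
Nr4a1, chr15:101266696-101266845, plus strand: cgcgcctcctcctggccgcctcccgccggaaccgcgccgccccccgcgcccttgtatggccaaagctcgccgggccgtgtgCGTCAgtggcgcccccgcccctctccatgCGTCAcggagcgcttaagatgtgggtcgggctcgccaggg
Jun, chr4:95052223-95052372, minus strand: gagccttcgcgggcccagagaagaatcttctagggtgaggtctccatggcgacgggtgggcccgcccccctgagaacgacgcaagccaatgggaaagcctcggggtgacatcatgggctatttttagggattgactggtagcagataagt

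Counted from the start, with -1 the last base before it, the Fos matches began at -129 and -66, the Fosb match at -60 and the Junb match at -106. Nr4a1 held 4 matches, all on the minus strand, of which those at -69 and -40 lie in the run above. In the Dusp1 window 2 matches on opposite strands overlapped between -143 and -136, and another began at -191. The CArG box, on which SRF sits, was matched in 1 of the 9 genes, Egr2, against 1.62% of all genes. The EGR site GCGNGGGCG was matched in Fosb, Fosl2 and Nr4a1 (5.33% of all genes), the AP-1 site TGANTCA in none of the 9 (7.82% of all genes), and TATAA on the sense strand in Fos and Egr2 (18.4%). The EGR match in the Fosb window lies 5 bases beyond its TGACG. A match is a string of letters in this window, and no match says only that these letters are not in it.

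Total expected counts, the RSEM estimates of reads per gene, ranged from 13189181 to 18533609 per library. Oscar itself had 42 to 118 expected counts in the 4 WT libraries and 0 in the 4 Oscar-/- libraries. All 2-week libraries were run on sequencing lane 5, the WT 4-week libraries on lane 3 and the Oscar-/- 4-week libraries on lane 1. DMM was therefore always compared with sham within a lane, week and lane cannot be told apart, and at 4 weeks genotype and lane cannot be told apart. The chondrocyte markers Col2a1 and Acan were present (59.5 to 209 TPM and 19.3 to 68.9 TPM), while Matn1 was near 0 (at most 0.44 TPM). The libraries were dominated by blood and marrow transcripts: 4 hemoglobin genes took 26.5% to 37.7% of TPM, and 10 neutrophil genes summed to between 67363 and 109150 TPM. In such bulk tissue fewer cells of a type and less RNA per cell cannot be told apart.

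The members spanned a wide range of levels. On the TPM scale (the share of transcripts, corrected for length), Junb had the highest mean (55.9 TPM), followed by Dusp1 (54.6 TPM), Ier2 (42.8 TPM) and Fos (42.1 TPM), and the ranges of these 4 over the libraries overlapped. A middle group held Fosl2 (10.6 TPM), Jun (8.51 TPM) and Nr4a1 (7.39 TPM). Atf3 (3.36 TPM) and Fosb (2.55 TPM) were low, with 18.7% of expressed genes below Fosb, against 89.5% below Junb. Egr2 (0.27 to 0.67 TPM) did not pass 1 TPM in any library, so 9 of the 10 members counted among the 12538 expressed protein-coding genes. Its 10 to 31 counts per library leave wide counting intervals, for example 4.8 to 18.4 around the 10 counts after DMM in Oscar-/- at 2 weeks (exact 95% Poisson interval, counting error only), and no statement below rests on it alone.

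**Figure D1:**
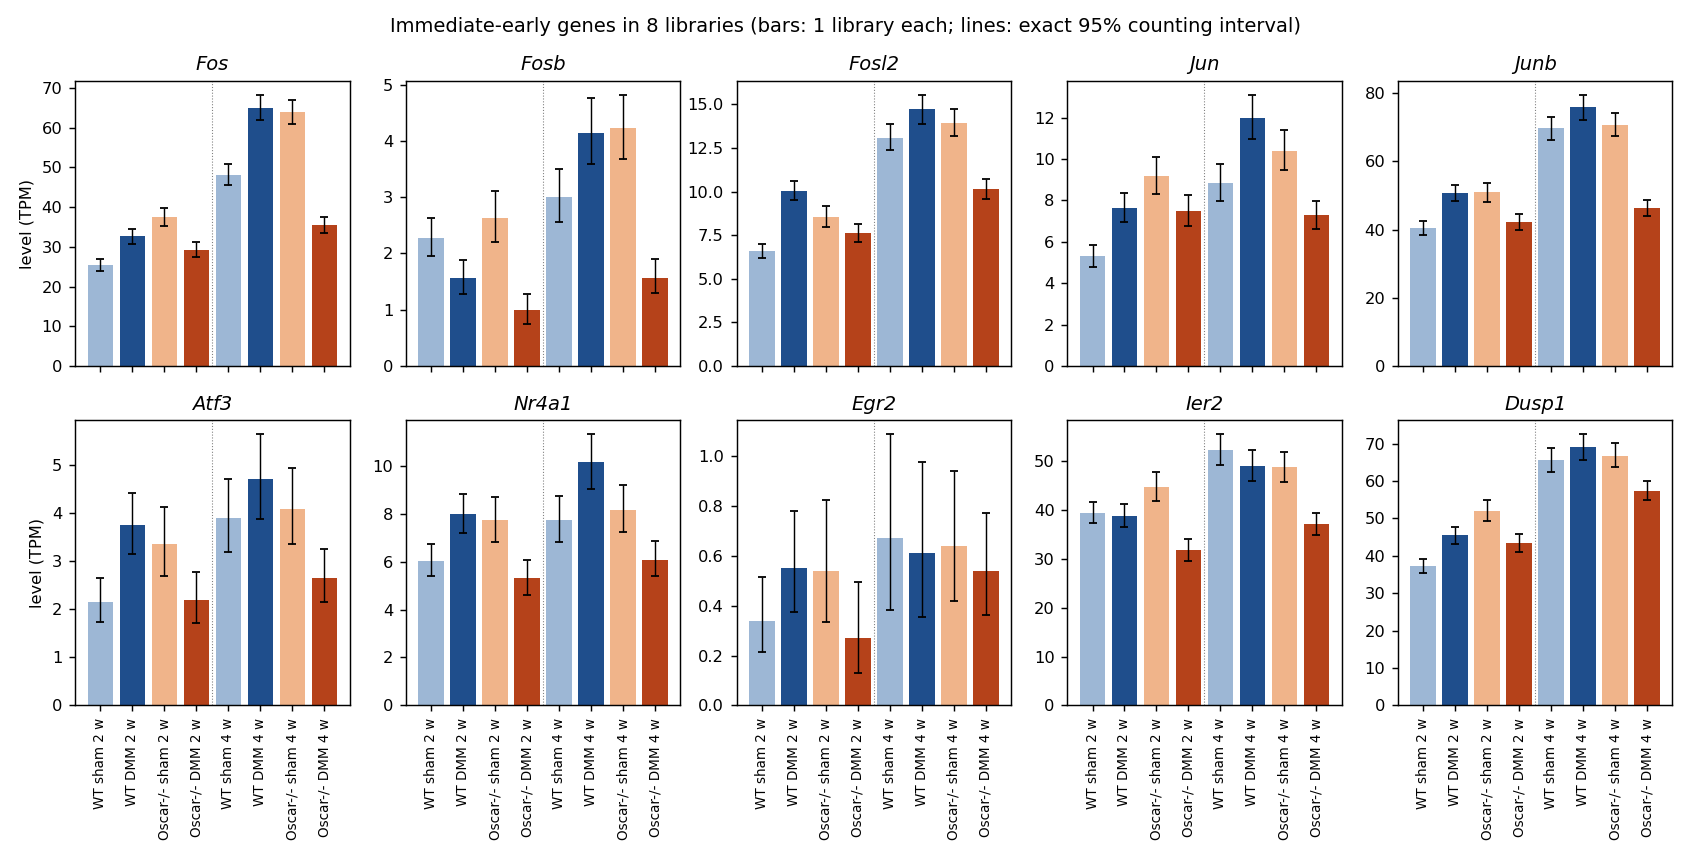
Level of each member in TPM (vertical axes, which differ between panels and start at 0) in the 8 libraries (horizontal axis, 2-week libraries to the left of the dotted line), with WT in blue, Oscar-/- in orange and DMM in the darker shade; bars are single libraries and lines are exact 95% counting intervals. Within Oscar-/-, the DMM bar is below the sham bar in all 10 panels at both weeks.

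Fos, the founding AP-1 subunit, stood 2 weeks after surgery at 25.3 TPM (WT sham), 32.7 TPM (WT DMM), 37.5 TPM (Oscar-/- sham) and 29.3 TPM (Oscar-/- DMM). The order of libraries is the same in the sentences that follow, and its levels at 4 weeks were 48, 65.0, 63.8 and 35.5 TPM. Both WT values were higher after DMM and both Oscar-/- values lower. The 2 highest Fos levels, WT DMM and Oscar-/- sham at 4 weeks, differed by less than their counting error.

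Fosb, a Fos relative that pairs with the same Jun partners, was at 2.28, 1.56, 2.63 and 0.99 TPM at 2 weeks in that order. At 4 weeks it was at 3.0, 4.14, 4.22 and 1.57 TPM. Its levels after DMM in Oscar-/- were the lowest of each week, on 55 and 109 expected counts. Fosl2 (Fra-2), a Fos relative with roles in bone and cartilage, was at 6.59, 10.1, 8.56 and 7.62 TPM and then at 13.1, 14.7, 13.9 and 10.2 TPM.

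Of the Jun subunits, Jun was at 5.30, 7.64, 9.17 and 7.47 TPM and, 2 weeks later, at 8.84, 12.0, 10.4 and 7.27 TPM. Junb, which shares Jun's partners and is often the weaker activator, was at 40.5, 50.7, 50.9 and 42.2 TPM and then at 69.7, 75.9, 70.8 and 46.3 TPM. At 4 weeks the Junb level after DMM in Oscar-/- lay below the other 3 libraries of that week, which held 69.7 to 75.9 TPM. Atf3, a stress-induced factor, was at 2.16, 3.75, 3.36 and 2.20 TPM and then at 3.90, 4.71, 4.10 and 2.66 TPM.

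Nr4a1 was at 6.03, 7.97, 7.72 and 5.30 TPM and then at 7.73, 10.1, 8.16 and 6.08 TPM. Ier2, for which Oscar-/- DMM was again the lowest library of each week, was at 39.5, 38.9, 44.7 and 31.7 TPM and then at 52.3, 49.0, 48.8 and 37.1 TPM. Unlike Fos or Nr4a1, Ier2 was not higher after DMM than after sham in WT at either week. Dusp1 was at 37.2, 45.5, 52.0 and 43.3 TPM and then at 65.5, 69.1, 66.8 and 57.5 TPM. The highest library was WT DMM at 4 weeks for 7 members, and the lowest was WT sham at 2 weeks for 6 and Oscar-/- DMM at 2 weeks for 4.

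TPM values share 1 fixed sum per library, so the typical gene moved between libraries as well, and ratios must be read against that. The median log2(DMM/sham) of TPM over expressed genes, at 2 and then 4 weeks, was 0.35 and 0.05 in WT, and -0.03 and -0.15 in Oscar-/-. The median log2(4 weeks/2 weeks) was 0.54 after sham and 0.27 after DMM in WT, and 0.20 and 0.11 in Oscar-/-. Differences below are log2 ratios of TPM minus the median of expressed genes in the same comparison, called relative ratios, unless said otherwise. The standard errors (SE) given beside them reflect counting error and nothing else.

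In WT the members did not move as 1 group after DMM. The median relative ratio of the 10 was 0.04 at 2 weeks and 0.17 at 4 weeks (before the all-gene median was taken off, 0.38 and 0.22). Fos, Fosl2, Jun, Atf3 and Nr4a1 were above 0 at both weeks, 5 of 10, where 31.7% of expressed genes were. Atf3 had 0.45 (SE 0.20) and 0.22 (SE 0.20), and Jun had 0.18 and 0.39 (SE 0.10 each). Fos had 0.02 at 2 weeks and 0.39 at 4 weeks (SE 0.06 and 0.05), and with counts scaled by TMM the first of these was -0.03.

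Fosb went from -0.89 (SE 0.17) at 2 weeks to 0.41 (SE 0.15) at 4 weeks. Junb (-0.02 and 0.07) and Dusp1 (-0.06 and 0.03) lay near 0. On unscaled TPM both were higher after DMM at 2 weeks, by 0.32 and 0.29. Ier2 was below 0 at both weeks (-0.37 and -0.14).

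In Oscar-/- cartilage all 10 members were below 0 after DMM at both weeks, where 31.1% of expressed genes were. This contrast is among those that chose the members, so the count describes the choice and is no evidence about the group. The median relative ratio was -0.39 at 2 weeks and -0.33 at 4 weeks. Fosb had the lowest values, -1.38 (SE 0.23) and -1.27 (SE 0.17), and was the 1 member at least 2-fold lower at both weeks, where 0.304% of expressed genes were. Fos had -0.32 (SE 0.07) and -0.69 (SE 0.05), Atf3 -0.58 (SE 0.23) and -0.47 (SE 0.20), and Nr4a1 -0.51 (SE 0.13) and -0.27 (SE 0.12).

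Ier2 had -0.46 and -0.25, Junb -0.24 and -0.46, Jun -0.26 and -0.36, and Fosl2 -0.13 and -0.31. Dusp1, the phosphatase, was closest to the median gene, at -0.23 and -0.07. Every member kept its sign in both weeks when counts scaled by TMM replaced TPM.

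**Figure D2:**
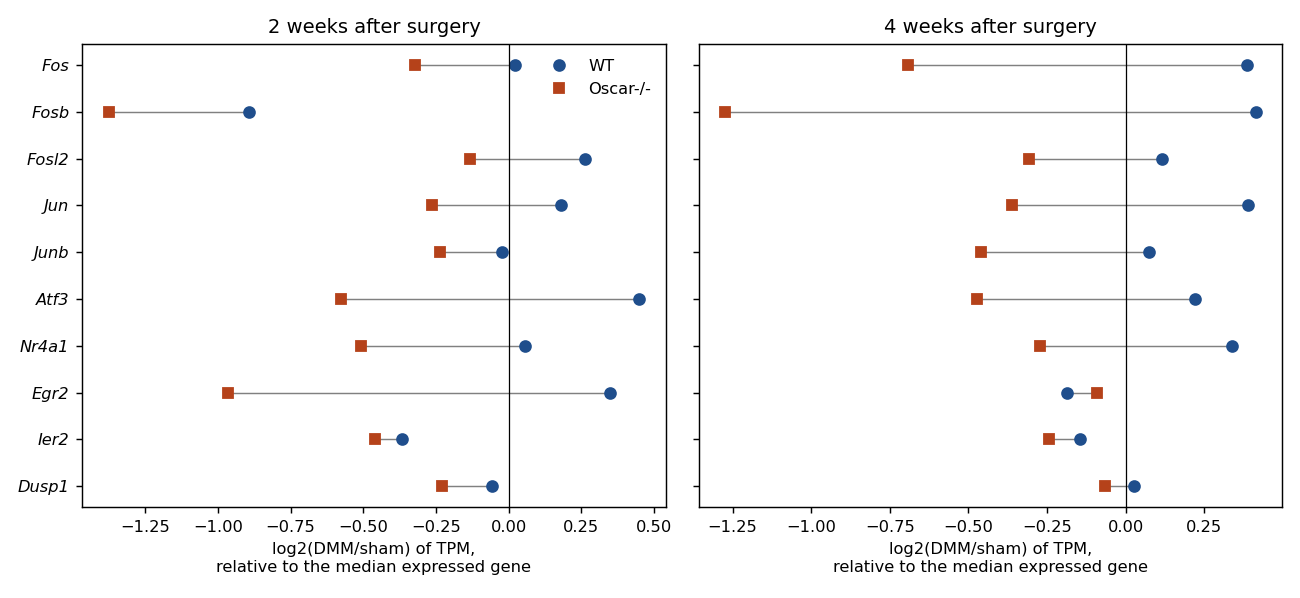
Log2(DMM/sham) of TPM relative to the median expressed gene (horizontal axis) for each member (rows) at 2 weeks (left) and 4 weeks (right), with WT as blue circles and Oscar-/- as orange squares, each from 1 pair of libraries. All Oscar-/- squares are below 0, and they lie left of the WT circle of the same gene in every row except that of Egr2 at 4 weeks.

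DIF, which subtracts the WT log2(DMM/sham) from that of Oscar-/-, combines these values. Relative to the median gene, the median DIF of the members was -0.39 at 2 weeks and -0.56 at 4 weeks. Averaged over both weeks it was lowest for Fosb (-1.06), Atf3 (-0.84) and Fos (-0.69), and highest for Ier2 (-0.08) and Dusp1 (-0.11). Of expressed genes, 2.55% had a lower mean DIF than Fosb, 5.43% lower than Atf3 and 8.40% lower than Fos, but 41.6% lower than Ier2. The family thus ran from near the edge of the distribution to its middle. Fos and Fosb had the wider gap at 4 weeks (-1.06 and -1.67, against -0.32 and -0.45 at 2 weeks), and Atf3 at 2 weeks (-1.0 against -0.68). Without WT DMM at 4 weeks the mean DIF was -0.51 for Fosb and -0.34 for Fos. Without WT DMM at 2 weeks it was -1.62 and -1.04. Each of these sets 1 WT DMM library against WT sham libraries of both weeks, so week and lane enter it. Which library carried the gap cannot be read from them. Atf3 stayed between -0.97 and -0.72 whichever library was left out, whereas Dusp1 reached 0.05 and Ier2 0.02.

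The study's own selection asked at both weeks for TPM above sham in WT, TPM below sham in Oscar-/-, and a DIF under its lower quartile. The quartile was taken here over the 12538 expressed genes, a set not identical to that of the study. Fosl2, Jun, Atf3 and Nr4a1 met it, 4 of 10, where 10.1% of expressed genes did. Fos lay just outside here, because its unscaled DIF at 2 weeks was -0.72 and the quartile -0.74. With so small a margin, whether the study's own list held Fos cannot be read from these values. Fosb failed on the WT side at 2 weeks, and Junb failed on the quartile at 2 weeks (-0.60). Dusp1 failed on the quartile at 2 weeks (-0.55) and at 4 weeks (-0.30, where the quartile was -0.49). Ier2 failed on the WT side and on the quartile at both weeks, and Egr2 failed on both at 4 weeks. Fos, Fosl2, Jun, Atf3 and Nr4a1 were above sham in WT and below it in Oscar-/- at both weeks relative to the median gene, where 12.9% of expressed genes were. In the edgeR model with a genotype by surgery term the members' estimates ran from -1.16 (SE 0.35) for Fosb to -0.08 (SE 0.13) for Ier2, given here as a description.

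The genotypes differed under both surgeries. After sham, 7 members (Fos, Fosl2, Jun, Junb, Atf3, Nr4a1 and Dusp1) were higher in Oscar-/- than in WT at both weeks relative to the median gene, where 29.7% of expressed genes were. Fos was higher by 0.29 and 0.46 and Jun by 0.51 and 0.28, while Junb was higher by 0.05 and 0.07 (SE 0.05 each). After DMM, 7 members (Fos, Fosb, Fosl2, Junb, Atf3, Ier2 and Nr4a1) were lower in Oscar-/- at both weeks, where 31.3% of expressed genes were. Atf3 was lower by -0.64 and -0.55, Nr4a1 by -0.46 in each week, and Fosb by -0.53 and -1.13.

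At 2 weeks, where all 4 libraries shared a lane, Fos in Oscar-/- DMM was within counting error of WT DMM (-0.03, SE 0.06), and Jun was slightly above it (0.10, SE 0.10). At 4 weeks the same comparison gave -0.60 for Fos and -0.45 for Jun, across lanes. The genotype term of the additive edgeR fit, which averages over both surgeries, called none of the 9 members tested, with edgeR adjusted p of nearly 1 for each. It called 0.00798% of genes as higher and 0.0399% as lower. At unadjusted p under 0.05 it likewise gave 0 members, as did DESeq2 and limma on log2(TPM + 1). Averaged over both weeks, the members' median relative ratio of Oscar-/- to WT was 0.16 after sham and -0.30 after DMM. The genotype term sets these against each other, and the difference on which the members were chosen stays in its spread. The absence of a call therefore cannot decide whether the genotypes differ within either surgery.

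Time after surgery is not among the differences named above for the choice of members. They were chosen with earlier results of these data known, so this comparison cannot be taken as independent of that choice. Without any scaling, 39 of the 40 ratios of 4 to 2 weeks were above 0, with a median over members of 0.52, but the median gene also moved up in every condition. Relative to that gene, Fos, Fosl2, Junb, Atf3 and Dusp1 were higher at 4 weeks in all 4 conditions, 5 of 10, where 20.6% of expressed genes were, and no member was lower in all 4 (20.2%). Fos differed by 0.39 after sham and 0.73 after DMM in WT, and by 0.56 and 0.17 in Oscar-/-. Fosl2 differed by 0.28 to 0.50 and Dusp1 by 0.16 to 0.34. Some values behind the count lay within counting error. Junb differed by 0.02 (SE 0.06) after DMM in Oscar-/-. Atf3 differed by 0.06 (SE 0.18) after DMM in WT, and by 0.08 (SE 0.20) after sham and 0.16 (SE 0.23) after DMM in Oscar-/-. Nr4a1, Ier2, Jun, Fosb and Egr2 had both signs, with Fosb at -0.14 after sham and 1.14 after DMM in WT.

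In the additive edgeR fit for week over all 8 libraries, none of the 9 members passed an adjusted p of 0.05, where 5.58% of genes were called higher and 2.35% lower. That fit holds no genotype by surgery term. The difference on which the members were chosen therefore stays in its spread, which can raise the members' p-values. Fosl2 came closest, higher at 4 weeks by 0.34 (SE 0.09, edgeR adjusted p = 0.053), followed by Dusp1 at 0.25 (SE 0.07, edgeR adjusted p = 0.057) and Fos at 0.47 (SE 0.14, edgeR adjusted p = 0.074). At unadjusted p under 0.05, 4 members were higher (Fos, Fosl2, Junb and Dusp1) and 0 lower. Ier2 (-0.01), Nr4a1 (-0.05), Jun (0.09) and Atf3 (0.12) had estimates within their SE of 0. DESeq2 called Fos and Fosl2 (adjusted p = 0.016 and 0.031), and leaving out the Oscar-/- DMM library of 4 weeks let edgeR call the same pair (adjusted p = 0.021 and 0.034), while edgeR adjusted p over all alternatives to the main fit ran up to 0.23 for Fos and 0.16 for Fosl2. Week and lane cannot be told apart here.

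**Figure D3:**
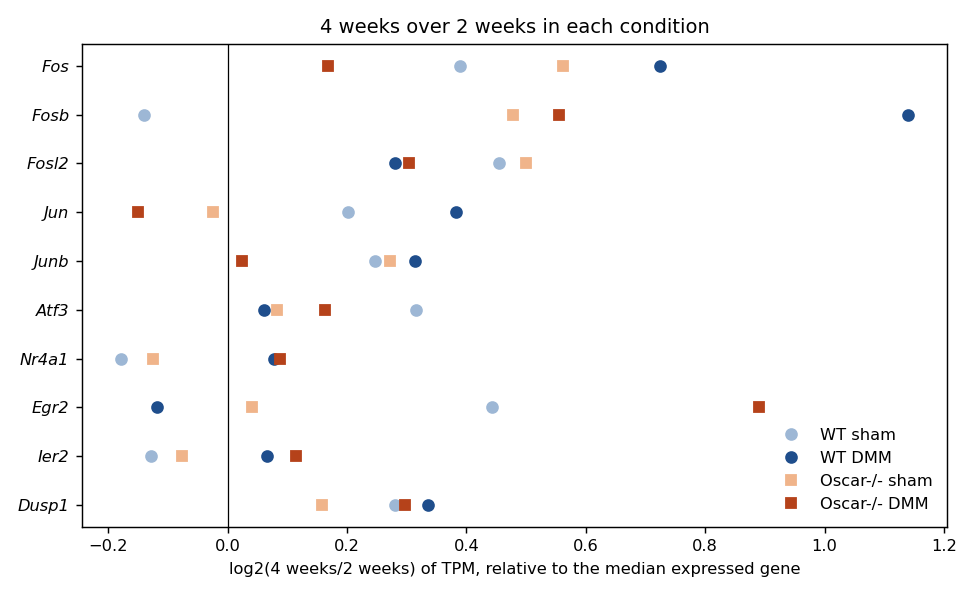
Log2(4 weeks/2 weeks) of TPM relative to the median expressed gene (horizontal axis) for each member (rows) in WT (circles) and Oscar-/- (squares), sham in the lighter and DMM in the darker shade, each point 1 pair of libraries. All 4 points are to the right of 0 for Fos, Fosl2, Junb, Atf3 and Dusp1, and for Nr4a1, Ier2, Jun, Fosb and Egr2 they fall on both sides of it.

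As a pool, the AP-1 subunits were mostly Junb, Jund and Fos. Jund, a Jun relative that is present at steady levels in most cells, was not chosen as a member and took 24.7% to 35.3% of the summed TPM of 7 Fos and Jun family genes. Junb took 30.1% to 33.5% and Fos 21% to 29.4%. Fosb, Fosl1 (at most 0.257%), Fosl2 and Jun together made up the rest. The summed level was 121, 152, 156 and 136 TPM at 2 weeks and 209, 238, 217 and 154 TPM at 4 weeks (WT sham, WT DMM, Oscar-/- sham, Oscar-/- DMM).

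The ratio of Fos family to Jun family TPM ran from 0.391 in Oscar-/- DMM at 2 weeks to 0.610 in Oscar-/- sham at 4 weeks. It was lower after DMM than after sham in Oscar-/- at both weeks (0.457 to 0.391 and 0.610 to 0.448) and higher after DMM in WT (0.398 to 0.418 and 0.444 to 0.546). The ratio of Fos to Fosb was 29.6 and 22.6 in the Oscar-/- DMM libraries, against 11.1 to 20.9 in the other 6. These ratios are within a library, so the scaling between libraries does not enter them.

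**Figure D4:**
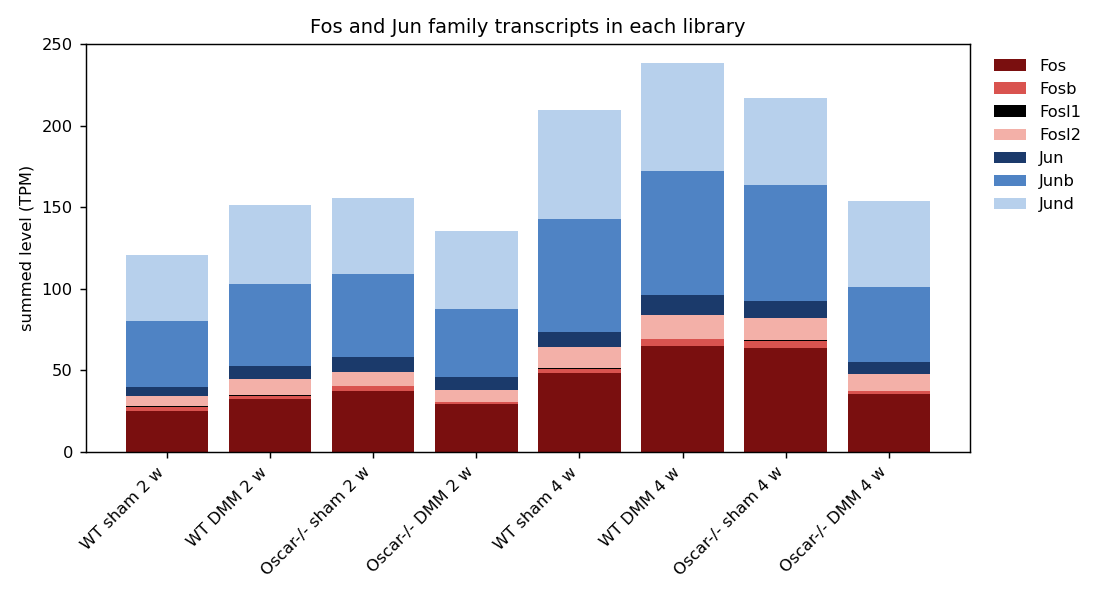
Summed level in TPM (vertical axis, from 0) of the Fos family (reds, with Fosl1 in black) and Jun family (blues) in each of the 8 libraries (horizontal axis), each bar 1 library. The totals run from 121 TPM in WT sham at 2 weeks to 238 TPM in WT DMM at 4 weeks, and the Fos segment is largest in WT DMM and Oscar-/- sham at 4 weeks.

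Over the 8 libraries the members varied together, on log2 CPM scaled by TMM. All 45 pairwise Pearson r were above 0, with a median of 0.54, where 49.7% of all pairs of expressed genes were above 0. The members were chosen for differences that they share among these same libraries, so positive r are in part built into the choice. Fos and Junb had the highest r (0.88), then Fosb and Junb (0.86) and Fos and Fosl2 (0.85), and Jun and Ier2 the lowest (0.01). The points share library, lane and tissue makeup, and 8 libraries give a loose estimate. The mean of the members, each centred on its own mean, was lowest in Oscar-/- DMM at 2 weeks (-0.41, with all 10 members below their own mean) and highest in Oscar-/- sham at 4 weeks (0.29, with all 10 above).

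Markers of other cell types differed between the libraries too. They are given as summed TPM, which is not the TMM-scaled measure of the members' mean. On summed TPM the members were lowest in WT sham at 2 weeks (165 TPM) and highest in WT DMM at 4 weeks (305 TPM). The endothelial and the smooth muscle and pericyte sums had the same extremes. The neutrophil and macrophage sums had theirs where the members' TMM-scaled mean did. The 10 neutrophil genes summed to 67363 TPM in Oscar-/- DMM at 2 weeks, their lowest, and to 109150 TPM in Oscar-/- sham at 4 weeks, their highest, and the 7 macrophage genes likewise ran from 3636 to 5272 TPM. Lyz2 alone held 3442 to 5036 TPM of the macrophage sum. Adgre1, Cd68, Csf1r, C1qa, C1qb and Mrc1 were instead lowest in WT sham at 2 weeks, and all but Mrc1 were highest in WT DMM at 4 weeks. Of the neutrophil genes, only the abundant S100a8 and S100a9 were highest in Oscar-/- sham at 4 weeks, and the others in WT sham at 4 weeks. The 8 erythroid genes were lowest in Oscar-/- sham at 4 weeks (266470 TPM) and highest in WT sham at 2 weeks (378598 TPM). In Oscar-/- the neutrophil sum was lower after DMM than after sham at both weeks (73871 to 67363 TPM and 109150 to 87468 TPM), as the members were, but in WT it was also lower after DMM at both weeks (94680 to 86641 TPM and 104960 to 91902 TPM). The chondrocyte sum was lower after DMM in Oscar-/- at both weeks (1483 to 773 TPM and 1200 to 667 TPM), and in WT it was lower at 2 weeks (950 to 737 TPM) and higher at 4 weeks (688 to 922 TPM). The sum of the 8 osteoblast and osteocyte genes had the directions of the members' median. It was higher after DMM in WT (2261 to 3694 TPM and 1974 to 3967 TPM) and lower in Oscar-/- (3619 to 2779 TPM and 2948 to 2583 TPM). Relative to the median gene, all 8 were below 0 after DMM in Oscar-/- at both weeks. On that scale Ibsp (-0.13) and Dmp1 (-0.24) were also below 0 after DMM in WT at 2 weeks. The other genes of this list were above 0 in WT at both weeks. The fibroblast sum was higher after DMM in WT (832 to 2094 TPM and 819 to 1839 TPM), and in Oscar-/- it was near the sham level at 2 weeks (1596 to 1608 TPM) and lower at 4 weeks (1246 to 989 TPM). The part of these cell types in the members' levels was not tested.

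The 10 other genes most like the members' mean, among 8103 genes of at least 5 mean TPM, had r from 0.94 to 0.89 over the 8 libraries. They were Mib2, an E3 ubiquitin ligase, Acad8, a mitochondrial acyl-CoA dehydrogenase, Chil5, a chitinase-like gene, Vegfa, the angiogenic growth factor, Slc35f6, Actr5, Ip6k2, Gabbr1, Rap1gds1 and Reck, a membrane-bound inhibitor of metalloproteinases. Vegfa ranged from 11.5 to 21.8 TPM, and its relative log2(DMM/sham) in Oscar-/- was -0.46 at both weeks. Ip6k2, with r = 0.89, had -0.28 at 2 weeks and 0.02 at 4 weeks, so a high r did not require the same difference in each comparison.

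The wider class held 30 other immediate-early genes, of which 28 were expressed. Their median mean DIF was -0.36 relative to the median gene, with 23 below 0 and 5 above, against -0.57 and 10 below 0 for the members. The edgeR genotype by surgery term called 0 as higher and 2 as lower, where 1.41% of genes were called higher and 3.83% lower. These were Klf4, a zinc finger factor, at -0.58 (SE 0.13, edgeR adjusted p = 0.031), and Ccn1, a matricellular protein gene, at -0.70 (SE 0.17, edgeR adjusted p = 0.039). Leaving out 1 library ended the Klf4 call in 7 of 8 cases, all but WT sham at 4 weeks, and the Ccn1 call in 5 of 8 (WT DMM or Oscar-/- sham of either week, or Oscar-/- DMM at 2 weeks), with edgeR adjusted p up to 0.16 and 0.20.

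For week, 2 of the 28 were called higher and 0 lower. Zfp36, which speeds the decay of AU-rich messages, rose by 0.45 (SE 0.08, edgeR adjusted p = 0.014), a call lost without WT sham at 4 weeks (edgeR adjusted p = 0.063), and Ier5 rose by 0.34 (SE 0.07, edgeR adjusted p = 0.027), a call lost without either library of Oscar-/- at 2 weeks, WT sham of either week or Oscar-/- sham at 4 weeks (edgeR adjusted p up to 0.11). The most abundant others were Ccn2 (106 to 301 TPM), Btg2 (56.3 to 89.0 TPM) and Btg1 (43.0 to 77.1 TPM). Ccn2, a matricellular protein gene made by chondrocytes, had -1.47 and -0.73 after DMM in Oscar-/-. Btg2, an antiproliferative gene, had 0.07 and 0.08.

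The 12 upstream factors, the SRF, ELK, MRTF and CREB groups that act on immediate-early promoters, were all expressed, and had a median mean DIF of -0.19, with 9 below 0. The genotype by surgery term called 1, the SRF partner Elk3, at -0.65 (SE 0.13, edgeR adjusted p = 0.025, lost without WT DMM or Oscar-/- sham of either week or Oscar-/- DMM at 4 weeks, up to 0.13), and the week term called 0 (5 higher and 0 lower at unadjusted p under 0.05 in edgeR, 0 called by DESeq2, 5 by limma). Srf itself, named after its values were seen, was at 7.38 to 13.9 TPM, with relative log2(DMM/sham) of 0.12 at both weeks in Oscar-/-. Atf1, the most abundant (23.4 to 42.6 TPM), had 0.10 and 0.13, and Crtc2 -0.07 and 0.19.

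Among 11 dimer partners of AP-1, none was called in the genotype by surgery term (1 higher and 3 lower at unadjusted p under 0.05 in edgeR, 0 called by DESeq2 and limma). For week, 2 of 11 were called higher, Mafg, a small Maf protein gene, at 0.45 (SE 0.07, edgeR adjusted p = 0.0071, called in all 8 fits without 1 library) and Bach1 at 0.39 (SE 0.09, edgeR adjusted p = 0.031, lost without either Oscar-/- library of 2 weeks, either WT library of 4 weeks or Oscar-/- sham at 4 weeks, up to 0.11). Atf4, the most abundant, was at 134 to 177 TPM. Of 10 expressed feedback inhibitors of MAP kinases, the class to which Dusp1 belongs, 5 had a mean DIF below 0 and 5 above. Spred1 was called in the genotype by surgery term at -0.53 (SE 0.13, edgeR adjusted p = 0.044), a call that held in 1 of 8 fits without 1 library, that without WT sham at 4 weeks (edgeR adjusted p up to 0.21 in the others). Dusp6, the most abundant, had 0.28 and 0.11 after DMM in Oscar-/-, and the week term called 0 of the 10 (1 in each direction at unadjusted p under 0.05 in edgeR, 0 called by DESeq2, 1 by limma).

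Genes known as AP-1 targets were of mixed direction over time. Of 10 expressed, edgeR called 1 higher at 4 weeks, Plaur, the urokinase receptor gene (0.32, SE 0.07), and 3 lower, Timp1 (-0.73, SE 0.13), Mmp3 (-0.94, SE 0.22) and Spp1 (-0.58, SE 0.14). The edgeR adjusted p was 0.027, 0.011, 0.036 and 0.036 in that order. Timp1 lost its call without WT sham at 4 weeks (edgeR adjusted p = 0.052). The other 3 were each called in 2 of 8 fits without 1 library, Plaur and Mmp3 without WT sham at 2 weeks among them, with edgeR adjusted p up to 0.097, 0.12 and 0.11 for Plaur, Mmp3 and Spp1. Mmp13, the collagenase of cartilage breakdown, was called in the genotype by surgery term at -0.92 (SE 0.19, edgeR adjusted p = 0.025, lost without WT DMM of either week or without Oscar-/- sham or DMM at 4 weeks, up to 0.11), with relative log2(DMM/sham) of 0.95 and 1.13 in WT and 0.39 and -0.18 in Oscar-/-. Mmp9, a gelatinase abundant in neutrophils and osteoclasts, was at 257 to 494 TPM.

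Heat shock genes, a separate class induced by heat and misfolded protein, were all expressed (11 of 11). Their median mean DIF was 0.13, with 7 above 0 and 4 below, and none was called in the genotype by surgery term or for week. At unadjusted p under 0.05 edgeR gave 4 higher and 2 lower for the former and 5 lower for the latter, where DESeq2 called 0 and 2 and limma 0 and 0. Hspa8, the constitutive chaperone, had 0.19 and 0.17 after DMM in Oscar-/-, while the inducible Hspa1a, also named after its values were seen, had -0.49 and -0.91. The genotype term called no gene of the 6 lists, nor did the surgery term, which called 0 of all 12538 genes in edgeR (485 higher and 320 lower at unadjusted p under 0.05) but 73 in DESeq2 and 21 in limma.

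**Figure D5:**
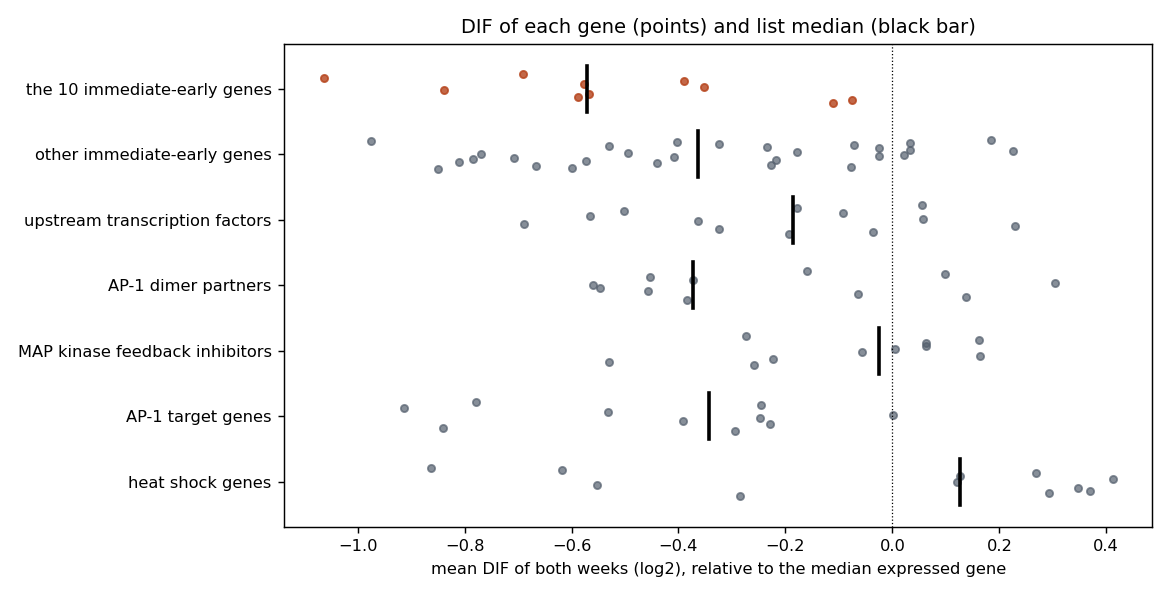
Mean DIF of both weeks in log2 units relative to the median expressed gene (horizontal axis) for each of the 10 members (orange points) and each expressed gene of 6 other lists (gray points), with the list median as a black bar. The median is -0.57 for the members, -0.36 for other immediate-early genes and 0.13 for heat shock genes, and 0 is the median expressed gene.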

How the data were processed

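RNA sequencing of 8 libraries, 1 for each combination of genotype, surgery and week, was analysed from the deposited gene tables. The authors trimmed reads with BBDuk, aligned them to GRCm38 with STAR 2.6.0a and quantified them with RSEM 1.2.17 and Gencode v22. The submitters' processing notes name a human build, but the identifiers are those of mouse, and 52403 of 52636 matched GENCODE M21 without version. The expected counts the authors deposited are RSEM estimates of reads per gene, and they were rounded for count tests. TPM, as deposited by the authors, is corrected for length and has 1 fixed sum per library, so abundant hemoglobin shifts the other genes.

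Members and gene lists were chosen with earlier results of these data known. All 10 members were named, and from each other list the called genes of lowest p (up to 4 per list) and up to 3 of highest mean TPM. Log2 TPM ratios used no pseudocount. Genes counted as expressed were protein-coding with more than 1 TPM in at least 1 library. Quasi-likelihood tests in edgeR 4.0.16 (TMM scaling, Benjamini-Hochberg adjustment over 12538 genes) had additive terms for week, surgery and genotype (4 residual degrees of freedom), or these with the genotype by surgery term (3). No condition was repeated, so p-values measure the spread left after these terms. DESeq2 1.42.0, limma 3.58.1 on log2(TPM + 1), DESeq2-type (RLE) size factors, no TPM filter and leaving out each library were alternatives, and the subtraction of the median gene and a block for genotype and week were added after seeing the data. Leaving out a library left the other week's library of that genotype and surgery to stand alone. For the ratio of 4 to 2 weeks, that genotype and surgery dropped out altogether. The tests were checked on simulated data. The software was R 4.3.3, Python 3.11.15, pandas 2.3.3 and scipy 1.17.1. Total expected counts were 13189181 to 18533609 per library. Sequences came from RefSeq promoter windows (GRCm38.p6). Srf, Hspa1a, Jund, Sgk1 and Atf7 were named in addition, after their values were seen. The erythroid list's genotype by surgery calls are not reported here.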

Additional observations from a re-analysis of the deposited data

Results flagged for a closer look

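For 5 members every WT pair of libraries was higher after DMM and every Oscar-/- pair lower, at both weeks and relative to the median gene, where 12.9% of expressed genes were. The mean DIF over both weeks on unscaled TPM was -1.15 for Atf3, -1.0 for Fos, -0.89 for Jun, -0.88 for Nr4a1 and -0.70 for Fosl2. Genotypes moving in opposite directions is what singled these out, the difference was not tested, and the members were chosen with it known. Some of these rest on values near 0. The WT ratio of Fos at 2 weeks was 0.02 with TPM and -0.03 with TMM-scaled counts, and that of Nr4a1 was 0.06 (SE 0.11). With 1 library left out, the mean WT ratio fell as low as -0.15 for Fos and -0.02 for Fosl2. The mean Oscar-/- ratio of Fosl2 then rose as high as 0.01. Jun, Atf3 and Nr4a1 kept both signs.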

How the results depend on the processing

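Scaling moved the members' median values without turning their direction. In log2 units averaged over both weeks, WT DMM over sham was 0.33 on unscaled TPM, 0.18 with TMM-scaled CPM and 0.14 relative to the median gene. Oscar-/- DMM over sham was -0.46, -0.37 and -0.37, DIF -0.88, -0.58 and -0.57 (and -0.71 with log2(TPM + 1)), and 4 over 2 weeks 0.52, 0.17 and 0.24. Leaving out 1 library gave -0.14 to 0.69 for WT DMM over sham, -0.67 to -0.35 for Oscar-/- DMM over sham, -1.23 to -0.47 for DIF, -0.11 to 0.70 for Oscar-/- over WT after sham, -0.76 to -0.20 after DMM, and 0.43 to 0.56 for 4 over 2 weeks. Where a library of a surgery or genotype comparison was left out, 1 library stood against libraries of both weeks, so week and lane enter the value. For 4 over 2 weeks the whole pair of that condition dropped out instead. On unscaled TPM, WT DMM over sham was negative without WT sham at 2 weeks. Relative to the median gene it was negative without that library (-0.05) and also without WT DMM at 4 weeks (-0.03, with 5 members below 0 and 5 above). On TPM relative to the median gene, all 10 members stayed below 0 after DMM in Oscar-/- in 7 of these 8 cases and 9 of 10 without Oscar-/- sham at 4 weeks, and DIF stayed below 0 for 9 or 10.

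For week, edgeR called 995 genes and limma 2699, and of the members 0 in edgeR, 1 without the TPM filter (Fosl2), 2 in DESeq2 and 4 in limma (Fos, Fosl2, Junb and Dusp1), which was run on TPM not scaled to the median gene. Leaving out 1 library gave 248 to 775 genes and 0 to 2 members. For genotype edgeR called 6 genes and DESeq2 10, with 2 to 8 when 1 library was left out and 0 members in each fit. For surgery edgeR called 0 genes, DESeq2 73, limma 21 and the fit without the TPM filter 17, with 0 to 52 when 1 library was left out. For the genotype by surgery term edgeR called 657 genes and limma 350, with 15 (without WT DMM at 4 weeks) to 1977 (without WT sham at 4 weeks) when 1 library was left out. The causes of these changes were not tested. The labels carry no replicate numbers, but each DMM library can be paired with the sham library of its genotype and week. With these 4 pairs as a block, a fit added after the data were seen that leaves 2 residual degrees of freedom for the genotype by surgery term, edgeR called 727 genes for that term and 0 for surgery (436 higher and 290 lower at unadjusted p under 0.05). No call in the lists was lost, and Sgk1 (edgeR adjusted p = 0.056 without the block and 0.039 with it) and Atf7 (edgeR adjusted p = 0.051 and 0.032) were gained.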

Other observations

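Calls in the lists of other cell types lay mostly among connective tissue, bone and vessel genes. In the genotype by surgery term edgeR called 6 of 10 fibroblast genes as lower, among them Dpt (-1.54, SE 0.16, edgeR adjusted p = 0.0032, called in all 8 fits without 1 library), 5 of 8 osteoblast and osteocyte genes, 5 of 10 endothelial genes, 3 of 6 smooth muscle and pericyte genes and 2 of 9 chondrocyte genes. No neutrophil, macrophage, B cell or skeletal muscle gene was called (1 neutrophil and 2 skeletal muscle genes higher and 1 macrophage gene lower at unadjusted p under 0.05 in edgeR). Col11a1, a cartilage collagen gene, had -1.28 (SE 0.20, edgeR adjusted p = 0.010), lost without Oscar-/- sham at 2 weeks or WT DMM at 4 weeks (edgeR adjusted p up to 0.083).

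For week, edgeR called 4 of 6 B cell genes as lower at 4 weeks, with Cd79a, Igll1 and Cd79b called in all 8 fits without 1 library, and 2 of 10 neutrophil genes as higher, of which Cxcr2 (0.44, SE 0.07, edgeR adjusted p = 0.0068) was called in all 8. The 6 skeletal muscle genes summed to 145 TPM in WT sham at 2 weeks and to 38.2 to 101 TPM in the other 7 libraries.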
